A study of Mus musculus with 115 samples.

Results

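Chga-positive mouse prostate libraries were split by their Tgm4 transcript level, and the 2 sides were compared gene by gene. Of the RNA-seq libraries in the series, 42 had Chga of at least 1 TPM. Of these 42, 6 had Tgm4 of at least 500 TPM (Tgm4-high), 34 had Tgm4 under 50 TPM (Tgm4-low), and 2 lay between and were left out. Members were chosen by the measured values of these genes, so the differences in Chga and Tgm4 between the sides follow from the choice, carry no test and support nothing by themselves. A second comparison set the same 6 Tgm4-high libraries against 61 libraries with Tgm4 of at least 500 TPM and Chga under 1 TPM, here called the Chga-low reference, and the remaining 12 libraries of the series entered neither comparison. Both comparisons share the 6 Tgm4-high libraries and are therefore not independent. Since Chga and Tgm4 sorted the libraries, genes that travel with either are favoured by construction.

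The animals were transgene-positive F2 males of a cross between TRAMP mice and the WSB/EiJ strain, and each library carries its own animal name, taken here to stand for 1 mouse. In the transgene, SV40 T antigen is placed under a short promoter of the probasin gene, which responds to androgen. Mice were kept for up to 210 days. The tissue was snap-frozen bulk prostate, labelled as tumour in every library without histology, and taken from the ventral prostate where the gland weighed under 1 g, and its total RNA was depleted of ribosomal RNA. The labels form 1 group and name no control tissue, histology, lobe or tumour stage for a library.

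The sides had been named mixed and pure neuroendocrine libraries. The values below go against the name mixed in 5 of the 6 Tgm4-high libraries, and the Tgm4-low side was not uniform, since 4 of its 34 libraries had Chga under 10 TPM and Insm1 of at most 1.91 TPM. The neutral names Tgm4-high and Tgm4-low are used throughout.

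Chga encodes chromogranin A, a protein of dense-core vesicles that is made by neuroendocrine tumour cells but also by adrenal chromaffin cells and peripheral neurons. Tgm4 encodes a transglutaminase that luminal cells of the dorsal and anterior prostate lobes secrete into the seminal fluid, whereas the ventral lobe secretes spermine-binding protein, encoded by Sbp. Neuroendocrine tumour cells are usually recognised by transcription factors such as Insm1 and Foxa2 together with granins and synaptic proteins. Autonomic neurons share the granins and synaptic proteins but carry Hand2 and the enzymes of noradrenaline synthesis, and their axons are wrapped by Schwann cells that express Sox10 and Cdh19.

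The promoters of the rule genes and of 9530053A07Rik, the third marker gene, are shown because their transcript levels define or track the sides. Each runs 5′ to 3′ from 250 bases before to 50 bases after the transcription start in GRCm38.p6, taken from the RefSeq genome: chr9:123034491-123034790 for Tgm4, chr7:28129216-28129515 for 9530053A07Rik and chr12:102554691-102554990 for Chga, all on the plus strand. Capitals mark a TATA box (TATAAA), the core of a cAMP response element (TGACGT) or an androgen receptor recognition hexamer (AGAACA).
Tgm4: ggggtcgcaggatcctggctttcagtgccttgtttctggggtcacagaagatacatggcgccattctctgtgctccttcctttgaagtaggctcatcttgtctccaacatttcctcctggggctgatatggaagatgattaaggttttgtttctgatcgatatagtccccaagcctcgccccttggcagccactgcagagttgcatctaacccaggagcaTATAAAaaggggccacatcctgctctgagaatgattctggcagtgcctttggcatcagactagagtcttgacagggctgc
9530053A07Rik: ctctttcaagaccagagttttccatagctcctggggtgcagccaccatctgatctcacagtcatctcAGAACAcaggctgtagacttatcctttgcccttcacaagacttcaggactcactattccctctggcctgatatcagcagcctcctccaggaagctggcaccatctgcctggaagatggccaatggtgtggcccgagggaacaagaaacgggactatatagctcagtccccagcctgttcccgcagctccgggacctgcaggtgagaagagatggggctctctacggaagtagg
Chga: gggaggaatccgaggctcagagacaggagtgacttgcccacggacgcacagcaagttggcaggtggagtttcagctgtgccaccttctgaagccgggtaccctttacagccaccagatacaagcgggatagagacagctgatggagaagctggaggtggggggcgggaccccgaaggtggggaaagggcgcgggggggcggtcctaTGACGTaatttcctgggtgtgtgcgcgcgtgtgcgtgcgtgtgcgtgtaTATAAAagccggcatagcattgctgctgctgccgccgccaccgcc
The Tgm4 promoter held 1 TATA box, the Chga promoter 1 TATA box and 1 cAMP response element core, and the 9530053A07Rik promoter 1 receptor hexamer. Of 32817 promoters searched on both strands in the same way, 4470 held TATAAA, 2463 held TGACGT and 6226 held AGAACA. A match describes the sequence only; binding was not measured.

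Chga ran from 1.21 to 53.3 TPM with a median of 3.16 in the Tgm4-high libraries, from 1.15 to 479 TPM with a median of 60.6 in the Tgm4-low libraries, and from 0.06 to 0.77 TPM with a median of 0.29 in the Chga-low reference. The highest of the 6 was W4517 at 53.3 TPM, and the other 5 stayed at or under 4.84 TPM. The nearest libraries to the Chga limit of 1 TPM were W242 at 0.81 TPM outside and W1050 at 1.15 TPM inside. Tgm4 ran from 1122 to 5123 TPM with a median of 2720.4 in the Tgm4-high libraries, from 0.77 to 18.7 TPM with a median of 1.76 in the Tgm4-low libraries, and from 517 to 16895 TPM with a median of 8765 in the reference. No Chga-positive library lay close to either Tgm4 limit: the highest Tgm4-low library was W1462 at 18.7 TPM, the 2 between were W4443 at 159.5 and W4419 at 195 TPM, and the lowest Tgm4-high library was W4219 at 1122 TPM. The median Tgm4 of the 6 was 31.04 % of the reference median, so even this side had less Tgm4 transcript than most Chga-low libraries.

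9530053A07Rik belonged to the prostate secretory and androgen-target list and moved with Tgm4. It ran from 1569 to 8897 TPM (median 5410.5) in the Tgm4-high libraries, from 1.92 to 44.95 TPM (median 4.04) in the Tgm4-low libraries and from 556 to 33972 TPM (median 18684) in the reference. The ratio of 9530053A07Rik to Tgm4 within a library had similar medians of 1.77 in Tgm4-high, 2.10 in Tgm4-low and 2.04 in reference libraries, but it was not constant. It ran from 0.714 to 2.89 in the reference, from 0.348 to 0.551 in the 2 libraries between the limits and from 0.217 to 2.47 in the remaining 12.

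**Figure D1:**
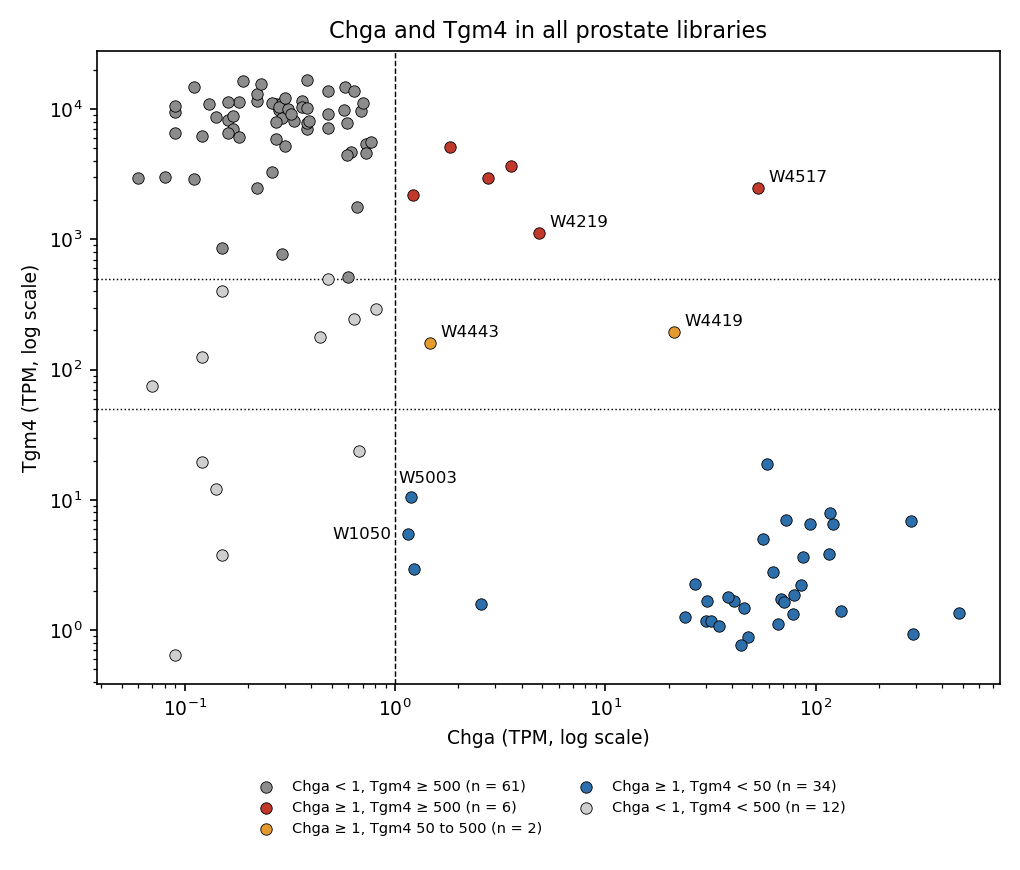
Chga (horizontal) against Tgm4 (vertical) in TPM on log scales, 1 point per library, coloured by class. Only W4517 among the Tgm4-high libraries has Chga in the range of most Tgm4-low libraries.

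Several transcription factors of the neuroendocrine state separated W4517 from the other 5 Tgm4-high libraries. Insm1, a zinc-finger repressor that drives endocrine differentiation, was at 34.2 TPM in W4517 and from 0 to 0.05 TPM in the other 5, where the reference ran from 0 to 0.08 TPM. The same held for Prox1 (16.8 against 0.25 to 0.52 TPM), Mycn (10.8 against 0.10 to 0.22 TPM), Sox11 (26.4 against 0.06 to 0.14 TPM) and St18 (37.9 against at most 0.26 TPM). Foxa2, the forkhead factor, was an exception, at 0 in W4517 and at most 0.04 TPM in the others. Sox2 went the other way, at 0.45 TPM in W4517 and from 0.91 to 4.51 TPM in the other 5. For comparison, the 30 Tgm4-low libraries with Chga of at least 10 TPM ran from 12.7 to 53.7 TPM (median 28.1) for Insm1 and from 0.04 to 62.9 TPM (median 3.37) for Foxa2. Isl1, Hes6 and Mycl, further members of that list, were expressed in the 5 (3.95 to 7.55, 6.56 to 9.87 and 9.06 to 35.75 TPM) within their reference ranges (0.72 to 14.9, 4.08 to 13.3 and 3.94 to 98.2 TPM). Fewer cells of a type and less RNA per cell cannot be told apart in such bulk values, here or in any result below.

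W4517 therefore carried transcripts of both kinds in 1 library. Apart from the rule genes, its Agr2, a disulfide isomerase of secretory cells, was 330.2 TPM or 49.4 % of the reference median, above all 30 Tgm4-low libraries with Chga of at least 10 TPM. Its luminal factor Spdef and luminal keratin Krt8, at 29.1 and 24.4 % of the reference median, lay within the ranges of these 30 (up to 5.19 and 310.5 TPM), and the secretory genes Msmb and Defb50 were at 3.24 and 3.46 %. Its Insm1 was 121.5 % of the median of the 30 Tgm4-low libraries with Chga of at least 10 TPM, its Prox1 66.3 % and its Mki67, a proliferation antigen, 41.8 %. Whether the 2 sets of transcripts came from the same cells or from neighbouring ones was not tested.

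Several granin and synaptic genes were nevertheless above every reference library in all 6. Snap25, a SNARE protein of synaptic and dense-core vesicle release, ran from 0 to 3.48 TPM in the reference (median 0.12) and from 10.02 to 28.8 TPM in the Tgm4-high libraries (median 18.5), without overlap, a difference of 3.61 log2 units. Scg5, which encodes the chaperone 7B2 of prohormone convertase 2, ran from 0.02 to 3.01 TPM in the reference and from 7.22 to 45.1 TPM in the 6, again without overlap. Scg2, the precursor of secretoneurin, reached 1.8 TPM at most in the reference and ran from 3.94 to 11.6 TPM in the 6. Ddc, the decarboxylase that makes dopamine and serotonin, ran from 0 to 4.15 TPM in the reference, from 6.75 to 21.2 TPM in 5 Tgm4-high libraries and stood at 194 TPM in W4517, all 6 above the reference. Summed over the granin and prohormone list without Chga, led by Pam, the Tgm4-high libraries held 116 TPM (W5001) to 365 TPM (W4517), and the reference reached 127.8 TPM, so the sum did not separate every library. Most genes of both lists were too low in the reference to pass the filter unless the 6 were high. Without a filter 12 of 13 granin and 16 of 19 synaptic genes were higher, where 7212 of 33338 genes were higher (21.6 %) and 282 lower (0.846 %).

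Several transcripts of peripheral neurons were higher in the other 5 than in W4517 and in the reference. Th and Dbh, the enzymes of noradrenaline synthesis, ran from 3.68 to 7.53 TPM and from 2.52 to 4.70 TPM in the 5, against 0.89 and 0.35 TPM in W4517 and at most 2.18 and 1.29 TPM in the reference. Hand2, a bHLH factor of autonomic neurons, ran from 1.09 to 3.18 TPM in the 5, overlapping the reference (highest 1.45 TPM), and was 0.11 TPM in W4517. Npy and Vip, neuropeptides of autonomic fibres singled out here after their values were seen, ran from 38.3 to 149 TPM and from 14.7 to 95.3 TPM in the 5, against 3.69 and 0.67 TPM in W4517. For each, 5 of 6 libraries lay above the highest reference library (18.9 and 5.18 TPM). W242, in neither comparison with Chga of 0.81 TPM, had Vip at 14.67 TPM, just below all 5, and Npy at 31.2 TPM. Its Th, Dbh and Hand2 were 1.08, 0.97 and 0.85 TPM, below all 5. High Vip and Npy were therefore not confined to libraries above the Chga limit. In the 30 Tgm4-low libraries with Chga of at least 10 TPM, Vip reached 0.69 TPM, Npy 4.28 TPM and Hand2 0.11 TPM. Th and Dbh were less specific, reaching 24.2 and 6.35 TPM in these 30 (medians 0.305 and 0.065), with 3 and 1 libraries above all 6.

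Prph, the intermediate filament of peripheral neurons, was the most abundant gene of that list. It ran from 0.32 to 8.12 TPM in the reference (median 0.98) and from 11.8 TPM in W4517 to 49.5 TPM in the 6, without overlap. It did not tell neurons from tumour cells by itself, because its median was 23.9 TPM in the 30 Tgm4-low libraries with Chga of at least 10 TPM. Summed over the 7 genes of the list, the 5 libraries held 26.2 to 65.6 TPM and W4517 held 13.9 TPM, the highest reference library being at 12.1 TPM. Without a filter 7 of 7 genes of the list were higher than in the reference, where 21.6 % of all 33338 genes were higher.

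Some Schwann cell transcripts were also higher in the 5, with overlap. Cdh19, a cadherin of Schwann precursors, ran from 3.0 to 5.38 TPM in the 5 libraries, against 0.18 TPM in W4517 and at most 3.33 TPM in the reference. Sox10, the factor that specifies the lineage, ran from 1.0 to 1.54 TPM in the 5, against 0.16 TPM in W4517 and at most 1.30 TPM in the reference, and in the 30 Tgm4-low libraries with Chga of at least 10 TPM Cdh19 reached 0.26 TPM. Among libraries in neither comparison, Sox10 was 2.12 TPM in W242, 2.36 TPM in W4078 and 2.31 TPM in W1154, above all 5. Cdh19 in these libraries was 1.35, 2.51 and 1.26 TPM, below all 5. Of 4 tested Schwann genes 2 were higher in the 6, where 18.9 % of all tested genes were higher, and 7 of 9 without a filter, where it was 21.6 %. The summed Schwann level, led by Pmp22, was 65.3 to 116 TPM in the 5 and 31.7 TPM in W4517, the highest reference library being at 66.9 TPM. Whether neurons or nerves account for Chga above 1 TPM in these 5 libraries was not tested.

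**Figure D2:**
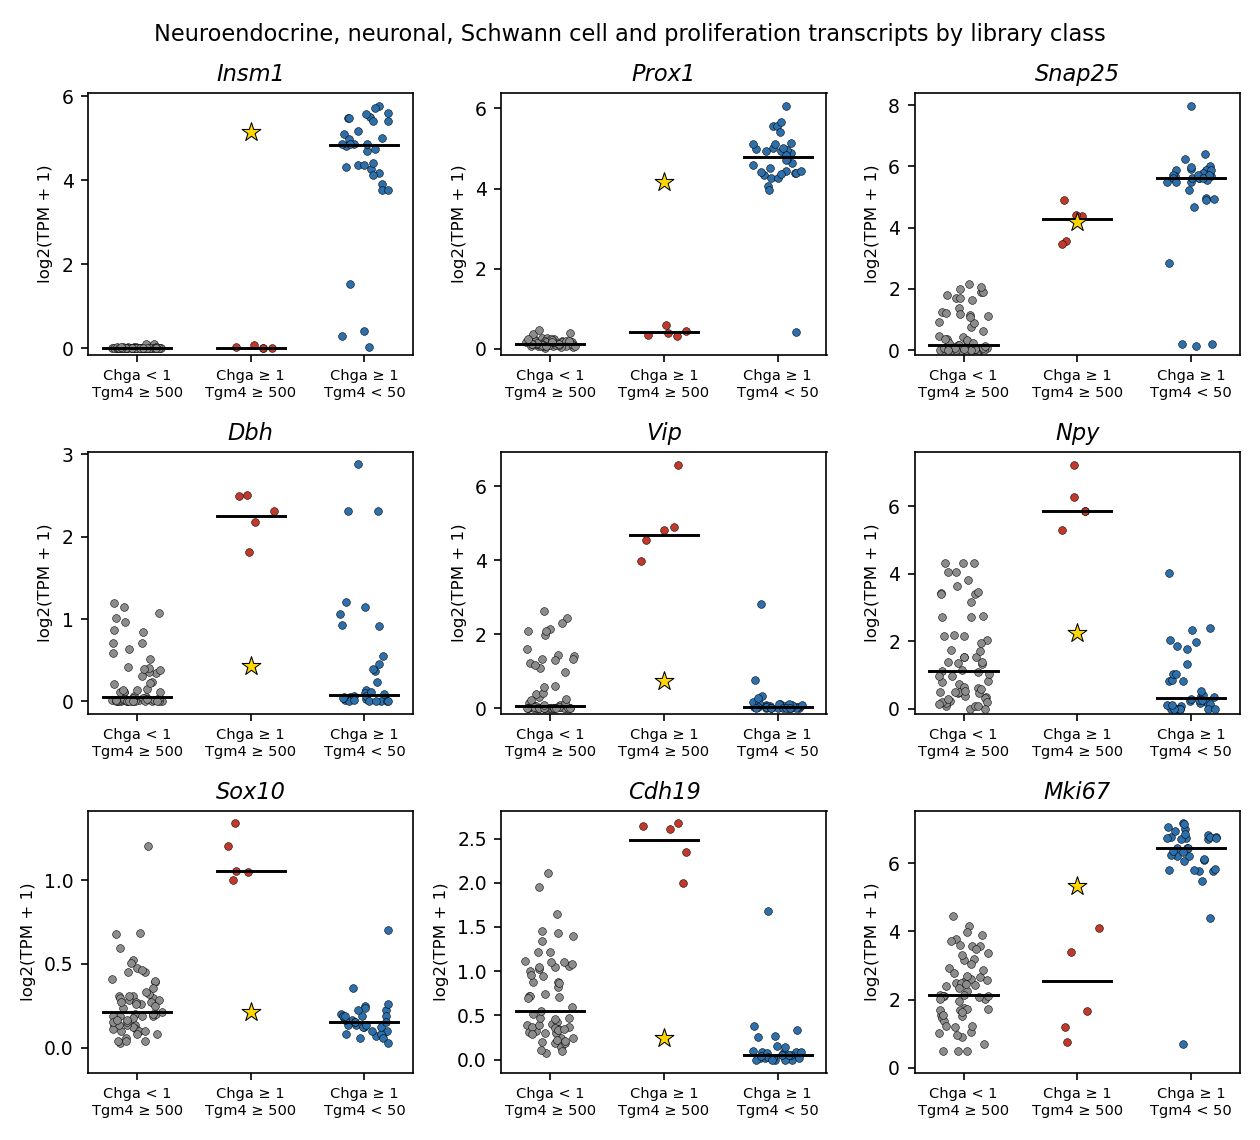
Levels of 9 marker genes as log2(TPM + 1), 1 point per library, by class, with bars at class medians and a star for W4517. The star sits with the Tgm4-low libraries for Insm1 and Prox1, while the other Tgm4-high libraries stand apart from the classes drawn for Vip and Npy and, against the reference, for Dbh. Libraries outside both comparisons are not drawn.

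Other cell types also differed between the 6 Tgm4-high libraries and the reference. Col1a1, the main fibrillar collagen chain, ran from 1.96 to 57.5 TPM (median 10.36) in the reference and from 15.8 to 69.2 TPM (median 25.2) in the 6, which overlapped, and rose by 1.32 ± 0.30 (adjusted p 0.00100, 6 of 6 above the reference median). Of 12 fibroblast and matrix genes 10 were higher, where 18.9 % of 12834 tested genes were higher and 1.89 % lower, the summed level being 499 to 1299 TPM with Dcn most abundant. Pecam1, an endothelial junction protein, ran from 0.80 to 14.7 TPM in the reference and from 7.39 to 17.3 TPM in the 6 and rose by 1.19 ± 0.30 (adjusted p 0.0029, 6 of 6 above the reference median), with 9 of 10 endothelial genes higher. Upk3a, a urothelial plaque protein, reached 20.5 TPM in the reference and ran from 4.65 to 105.3 TPM in the 6 (2.60 ± 0.58, adjusted p 7.5e-04, 6 of 6 above the reference median), with 3 of 4 tested urothelial genes higher. The summed urothelial level, led by Upk1b, ran from 29.2 to 356 TPM in the 6 and from 19.7 to 244.2 TPM in the reference (median 84.2), so it overlapped, and the median of Upk1b itself was not higher in the 6 (67.3 against 71.5 TPM). Ckm, the creatine kinase of skeletal muscle, ran from 3.11 to 391.8 TPM in the 6 and from 1.70 to 502 TPM in the reference. Its difference of 2.30 ± 0.62 (adjusted p 0.0049, 5 of 6 above the reference median) fell to 1.64 without W5001 (adjusted p 0.051, against 7.5e-04 to 0.051 over all alternatives), so the call rested on that library. The share of each neighbouring tissue in a piece was not tested.

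The direction of the second comparison as a whole depended on scaling, and the sums of TPM are dominated by few genes. The 20 largest genes held 59.9 to 75.7 % of TPM in the 6 (median 62.6 %) and 56.1 to 81.8 % in the reference (median 67.8 %). On the deposited scale 2424 genes were higher and 243 lower. Median-of-ratios scaling gave 1629 higher and 2793 lower of 12971 genes (12.6 % and 21.5 %), as the median over all genes moved from 0.22 to −0.05. Rescaling without the 20 largest genes gave 3821 higher and 1056 lower of 16230 genes (23.5 % and 6.51 %). Leaving out W4292 lowered the number of higher genes to 1538, and leaving out W4517 gave 2056 higher (16.1 %) and 123 lower (0.962 %) of 12788 genes. After median-of-ratios scaling 9 of 12 fibroblast and 8 of 10 endothelial genes were called higher.

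Calls among luminal and secretory-pathway genes changed with scaling in the second comparison, as did calls over all genes. Hoxb13, a homeobox factor of prostate identity, ran from 28.9 to 96.1 TPM (median 63.2) in the reference and from 25.99 to 68.1 TPM (median 51.1) in the 6, with 5 of 6 below the reference median. It just missed the threshold on the deposited scale (−0.45, adjusted p 0.051) and passed it after median-of-ratios scaling (−0.77, adjusted p 0.0012, against 0.0012 to 0.20 over all alternatives). On the deposited scale it also passed with no filter (adjusted p 0.0451) and with Tgm4 limits of 1000 and 10 TPM (0.0422). The same held without W78022 (0.0452) and without W4517 (−0.57, adjusted p 0.0206), so its call did not depend on scaling alone. Of 14 luminal transcription factors 2 were lower on the deposited scale and 8 under median-of-ratios scaling, and of 24 genes of endoplasmic reticulum folding and secretion 3 and 21 were lower. Over all tested genes the lower share was 1.89 % and 21.5 %. Hspa5, the BiP chaperone, ran from 269 to 964 TPM (median 603) in the 6 and from 255 to 4410.0 TPM (median 1012) in the reference and missed the threshold on the deposited scale (−0.71, adjusted p 0.17) but not after median-of-ratios scaling (−1.04, adjusted p 0.027, against 0.027 to 0.36 over all alternatives). Cell-cycle genes did not separate the 6 from the reference on either scale, with 0 of 26 called higher or lower, and Mki67 differed by 0.47 (adjusted p 0.45). An adjusted p above the threshold does not show that levels were equal.

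The prostate secretory list, described without test because Tgm4 chose the sides, did not move as 1 block. Relative to the reference median, the median of the 6 was 36.9 % for Agr2, 59.8 % for Azgp1, 63.4 % for Tmprss2 and 131 % for Defb50, but 1097 % for Msmb, which encodes a seminal microprotein. In the Tgm4-low libraries the corresponding medians were 0.0434 % for Agr2, 0.125 % for Azgp1, 0.232 % for Tmprss2, 0.131 % for Defb50 and 0.600 % for Msmb. Fkbp5, a glucocorticoid- and androgen-responsive chaperone, was at 246 % in the Tgm4-high and 83.01 % in the Tgm4-low libraries. By its medians alone Sbp went the other way, with 7.80 TPM in Tgm4-low libraries, 1.79 TPM in Tgm4-high and 0.68 TPM in reference libraries. Its ranges overlapped widely, reaching 92090 TPM in the reference (W5005) and 4530 TPM in the Tgm4-high libraries (W5001). In the Tgm4-low libraries it reached 70964 TPM (W5003), but 676 TPM (W899) in the 30 with Chga of at least 10 TPM. Summed over the list without Tgm4 and 9530053A07Rik, the 5 Tgm4-high libraries other than W4517 held 11418 to 28021 TPM, the 30 Tgm4-low libraries with Chga of at least 10 TPM held 33.4 to 4607 TPM with a median of 61.9, and W4517 at 721 TPM lay within the range of these 30.

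In the first comparison, Tgm4-low minus Tgm4-high, 4631 of 15040 autosomal genes were higher (30.8 %) and 3507 lower (23.3 %), with a median of 0.14 over all genes. Of the called genes 56.9 % were higher, and 51.4 % after median-of-ratios scaling. Because W4517 and 4 Tgm4-low libraries with Chga under 10 TPM differed from the rest of their sides, the list counts are also given without these 5, a choice made after seeing the data. That comparison of 30 with 5 libraries had 5234 of 14903 genes higher (35.1 %) and 4251 lower (28.5 %). It sets Chga-rich libraries against libraries with Insm1 near 0, so it no longer contrasts mixed with pure ones. Neuroendocrine, granin and synaptic counts without these 5 are favoured by that choice and support nothing by themselves.

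Of 17 tested neuroendocrine transcription factors 10 were higher in the Tgm4-low libraries and 1 lower (11 and 1 without the 5 libraries). A filter on the mean favours genes high in the larger side. Without it 10 of 22 were higher and 1 lower, where 14.9 % of all 35301 genes were higher and 13.9 % lower. Prox1, a homeobox factor of endocrine and neural progenitors, ran from 0.34 to 66.3 TPM (median 26.5) against 0.25 to 16.8 TPM (median 0.335) and rose by 3.63 ± 0.43 (adjusted p 1.0e-08), 31 of 34 libraries lying above W4517. Insm1 ran from 0.02 to 53.7 TPM (median 27.5) and rose by 3.47 ± 0.68 (adjusted p 6.5e-05), but only 10 of 34 libraries lay above W4517. Mycn, the neural Myc paralog, rose by 2.96 ± 0.54 (adjusted p 2.2e-05, 25 of 34 above W4517). Hes6, an inhibitor of Hes1, overlapped, with 6.82 to 405 TPM (median 40.6) against 6.56 to 31.5 TPM (median 8.46), and rose by 2.15 ± 0.55 (adjusted p 0.0014). Foxa2 rose by 2.34 ± 0.80 (adjusted p 0.013, 32 of 34 above all 6). The 6 reached only 0.04 TPM, so this count includes Tgm4-low libraries with Foxa2 near 0, such as W4356 at 0.05 TPM.

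Isl1, a LIM-homeobox factor found in endocrine cells and in autonomic neurons alike, went the other way. It ran from 0.04 to 18.8 TPM (median 1.09) in Tgm4-low and from 3.95 to 11.1 TPM (median 6.03) in Tgm4-high libraries and fell by 1.32 ± 0.55 (adjusted p 0.042, 23 of 34 below all 6). The call was fragile although the difference changed little: without W4219, W4292, W4360, W4517 or W5001 it was −1.17 to −1.37 with adjusted p from 0.057 to 0.095. The call was also lost with no filter (adjusted p 0.072), without W1050, W1790 and W1915 (0.059) and without the 5 libraries (−1.05, adjusted p 0.13), and over alternatives with more than 1 library per side it ranged from 0.029 to 0.13.

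Neural splicing factors moved with the transcription factors, 9 of 13 being higher and 1 lower, with and without the 5 libraries. Of all tested genes 30.8 % were higher and 23.3 % lower (35.1 % and 28.5 % without the 5). Srrm3, an activator of neural microexons, ran from 0.13 to 22.2 TPM (median 10.44) against 0.10 to 6.97 TPM (median 0.31) and rose by 2.37 ± 0.49 (adjusted p 1.4e-04, 28 of 34 above W4517). Its paralog Srrm4 rose by 1.13 ± 0.30 (adjusted p 0.0017, 28 of 34 above all 6), the RNA-binding protein Elavl3 by 2.66 ± 0.55 (adjusted p 1.4e-04, 27 of 34) and Ptbp2, the neural polypyrimidine-tract protein, by 1.31 ± 0.30 (adjusted p 4.8e-04, 26 of 34). Rest, the repressor of neuronal genes, was the lower gene of the list. It ran from 0.13 to 15.4 TPM (median 0.815) against 2.2 to 9.27 TPM (median 6.95) and fell by 1.65 ± 0.42 (adjusted p 0.0013), the 30 libraries with Chga of at least 10 TPM reaching 3.51 TPM at most.

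Single granins and synaptic genes also differed between the sides. Of 12 tested granin and prohormone genes 2 were higher, and of 19 synaptic genes 8 were higher and 1 lower. Of all tested genes 30.8 % were higher and 23.3 % lower. Without the 5 libraries it was 6 higher and 1 lower, and 12 higher and 1 lower. The shares of all tested genes were then 35.1 % and 28.5 %. Differences of the lists from these shares were not tested. Chgb, the second chromogranin, ran from 0.14 to 292 TPM (median 39.8) against 0.88 to 17.8 TPM (median 2.22) and rose by 2.75 ± 0.73 (adjusted p 0.0018, 27 of 34 above all 6). Scg3, a sorting receptor for granins, rose by 2.11 ± 0.61 (adjusted p 0.0041, 28 of 34 above all 6). Syt1, the calcium sensor of vesicle fusion, rose by 2.25 ± 0.53 (adjusted p 5.2e-04, 30 of 34). Scg2 differed by 0.01 ± 0.85 (adjusted p 0.99), with medians of 6.59 and 7.14 TPM.

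For Snap25, Scg5 and Ddc the call depended on which libraries were kept. Snap25 differed by 0.99 ± 0.69 (adjusted p 0.22), but without W1050, W1790 and W1915, which had 0.15 TPM or less, the difference was 1.47 (adjusted p 1.8e-04). Scg5 differed by 1.02 ± 0.68 (adjusted p 0.20) and by 1.91 without the 5 libraries (adjusted p 1.0e-08). Ddc differed by 1.73 ± 0.97 (adjusted p 0.13), by 2.39 without W4517 (adjusted p 0.047) and by 3.05 without the 5 (adjusted p 2.1e-04). Over all alternatives with more than 1 library per side, the adjusted p ranged from 6.4e-06 to 0.46 for Snap25, from 1.0e-08 to 0.39 for Scg5 and from 2.1e-04 to 0.25 for Ddc.

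Proliferation genes moved as 1 block, all 26 tested cell-cycle genes being higher in Tgm4-low libraries with a list median of 2.57 (3.12 without the 5 libraries). Beside this count and the Polycomb count below, 30.8 % of all tested genes were higher (35.1 % without the 5). Mki67 ran from 0.62 to 144 TPM (median 85.8) against 0.70 to 39.7 TPM (median 5.82) and rose by 3.48 ± 0.53 (adjusted p 1.3e-06, 32 of 34 above all 6). Top2a, the topoisomerase of dividing cells, ran from 2.0 to 357 TPM (median 229) against 1.61 to 167 TPM (median 11.6) and rose by 3.77 ± 0.55 (adjusted p 6.5e-07, 30 of 34). In both genes W4517 was the highest of the 6, and the other 5 reached 16.1 and 29.5 TPM. E2f1, which switches on S-phase genes, rose by 1.97 ± 0.25 (adjusted p 5.2e-08, 32 of 34 above all 6). Ezh2, the methyltransferase of Polycomb complex PRC2, ran from 3.64 to 83.6 TPM (median 51.7) against 2.72 to 26.6 TPM (median 7.44) and rose by 2.44 ± 0.36 (adjusted p 9.4e-07, 30 of 34), with 10 of 12 Polycomb and DNA methylation genes higher (9 of 12 without the 5).

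Several luminal transcription factors were lower in Tgm4-low libraries, 10 of 14 being lower and 0 higher, with a list median of −1.88 (11 of 13 lower without the 5 libraries). Of all tested genes 23.3 % were lower and 30.8 % higher (28.5 % lower without the 5). A filter on the mean keeps factors scarce in the 34 only if they are high in the 6, and Tgm4 is itself a luminal gene. The count of lower factors therefore supports nothing by itself. Spdef, an ETS factor of secretory epithelium, ran from 0.05 to 7.32 TPM (median 0.16) against 4.33 to 14.03 TPM (median 11.1) and fell by 2.87 ± 0.30 (adjusted p 7.0e-10), 2 of 34 reaching the lowest of the 6. Gata2, a pioneer factor that acts with the androgen receptor, ran from 0.62 to 6.10 TPM against 7.92 to 29.9 TPM without overlap and fell by 2.02 ± 0.25 (adjusted p 2.3e-08). Hoxb13 and Foxa1, which also guide the androgen receptor, did not pass, with −0.92 (adjusted p 0.30) and −0.45 (adjusted p 0.45). Hoxb13 had a median of 37.9 TPM in Tgm4-low libraries, against 51.1 TPM in the 6, and Foxa1 12.7 against 13.1 TPM, so these prostate factors were present in most libraries in which Tgm4 and Spdef were near 0.

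Epithelial keratins and adhesion genes were lower as well, 13 of 15 being called (14 of 15 without the 5 libraries), where 23.3 % of all tested genes were lower (28.5 % without the 5). Krt8 ran from 0.14 to 631 TPM (median 2.64) against 44.2 to 289 TPM (median 171) and fell by 3.69 ± 1.25 (adjusted p 0.012), although 11 of 34 libraries lay above the lowest Tgm4-high library. Its partner Krt18 fell by 4.31 ± 1.10 (adjusted p 0.0013, 6 of 34 above the lowest of the 6), and Cdh1, E-cadherin, by 3.69 ± 0.88 (adjusted p 6.1e-04, 9 of 34). Epcam, a surface adhesion protein, kept a median of 11.5 TPM against 112.7 TPM and fell by 2.71 (adjusted p 0.0054, 10 of 34). Krt5, the basal keratin, fell by 3.15 ± 0.42 (adjusted p 1.2e-07, 3 of 34). Of 9 tested basal genes 6 were lower (6 of 7 without the 5). The summed basal level had a median of 5.7 TPM in Tgm4-low and 89.2 TPM in Tgm4-high libraries. The filter on the mean therefore favoured basal genes high in the 6, so their count supports nothing by itself.

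Genes of the secretory pathway fell with the secreted products. Of 24 folding and secretion genes 20 were lower with and without the 5 libraries, with a list median of −1.58. Of all tested genes 23.3 % were lower (28.5 % without the 5). Hspa5 ran from 64.9 to 469 TPM (median 134) against 269 to 964 TPM and fell by 2.04 ± 0.30 (adjusted p 8.7e-07, 4 of 34 above the lowest of the 6). Sdf2l1, its partner in the folding complex, fell by 2.77 ± 0.38 (adjusted p 2.3e-07, 2 of 34). Xbp1, which drives secretory capacity, fell by 0.97 ± 0.33 (adjusted p 0.013) but overlapped in 18 of 34 libraries, and without W4292 its difference was −0.82 (adjusted p 0.054, against 0.0024 to 0.054 over the alternatives with more than 1 library per side). In polyamine metabolism, Amd1, which supplies the aminopropyl groups of spermine, fell by 1.07 ± 0.32 (adjusted p 0.0054, 16 of 34 above the lowest of the 6), while Odc1, the first enzyme, differed by 0.53 (adjusted p 0.061; 0.65 and 0.037 without W4219, against 0.037 to 0.24 over the same alternatives) and 4 of 12 genes of the list were lower (5 of 12 without the 5), near the 23.3 % of all tested genes (28.5 % without the 5).

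Smooth muscle and antigen-presentation genes were lower in Tgm4-low libraries too. Myh11, the smooth muscle myosin, ran from 0.16 to 239 TPM (median 1.05) against 37.9 to 439 TPM (median 244.1) and fell by 6.14 ± 0.64 (adjusted p 5.9e-10), only W5003 lying above the lowest of the 6, and 10 of 10 smooth muscle genes were lower with and without the 5 libraries. The summed smooth muscle level was 460 TPM in W4517, 1315 to 4107 TPM in the other 5 and 31.6 TPM at the Tgm4-low median. With levels this low in the 34, the filter on the mean favoured genes high in the 6, and with them the count of 10 lower genes. Fibroblast genes moved less, with 3 of 12 lower (4 without the 5), near the share of all tested genes, and Col1a1 differing by −0.56 (adjusted p 0.55); Pecam1 fell by 1.31 ± 0.38 (adjusted p 0.0037, 9 of 34 above the lowest of the 6) with 6 of 10 endothelial genes lower (9 without the 5). B2m, the light chain of MHC class I, ran from 12.6 to 1406 TPM (median 100.01) against 609 to 4191 TPM (median 1757) and fell by 3.92 ± 0.72 (adjusted p 2.3e-05, 5 of 34), and H2-K1, a heavy chain, fell by 2.66 ± 0.71 (adjusted p 0.0021, 12 of 34). Of 11 class I genes 7 were lower (10 without the 5), and of 11 leukocyte genes 1 (2 without the 5). Beside each count of this paragraph, 23.3 % of all tested genes were lower (28.5 % without the 5).

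Tissues that lie beside the prostate separated the sides as well. All tested seminal vesicle (4 of 4), skeletal muscle (6 of 6), adipocyte (4 of 4), urothelial (4 of 4) and Schwann genes (4 of 4) were lower in Tgm4-low libraries, with and without the 5 libraries. A filter on the mean keeps genes scarce in the 34 only if they are high in the 6. Without it 7 of 7 seminal vesicle, 7 of 7 skeletal muscle, 5 of 5 adipocyte, 5 of 5 urothelial and 7 of 9 Schwann genes were lower, where 13.9 % of all genes were. Svs4, a seminal vesicle secretion whose family members are similar in sequence and hard to assign, ran from 0.13 to 30.6 TPM against 8.43 to 2302 TPM and fell by 5.87, 4 of 34 lying above the lowest of the 6. Within the Tgm4-high side the summed seminal vesicle level, led by Svs5, ran from 61.2 TPM in W4219 to 53829 TPM in W4492, and the adipocyte level, led by Fabp4, from 32.5 TPM in W5001 to 1866 TPM in W4219. Prph, by contrast, differed by −0.63 (adjusted p 0.38). How far such neighbouring tissue contributes to the other differences was not tested.

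**Figure D3:**
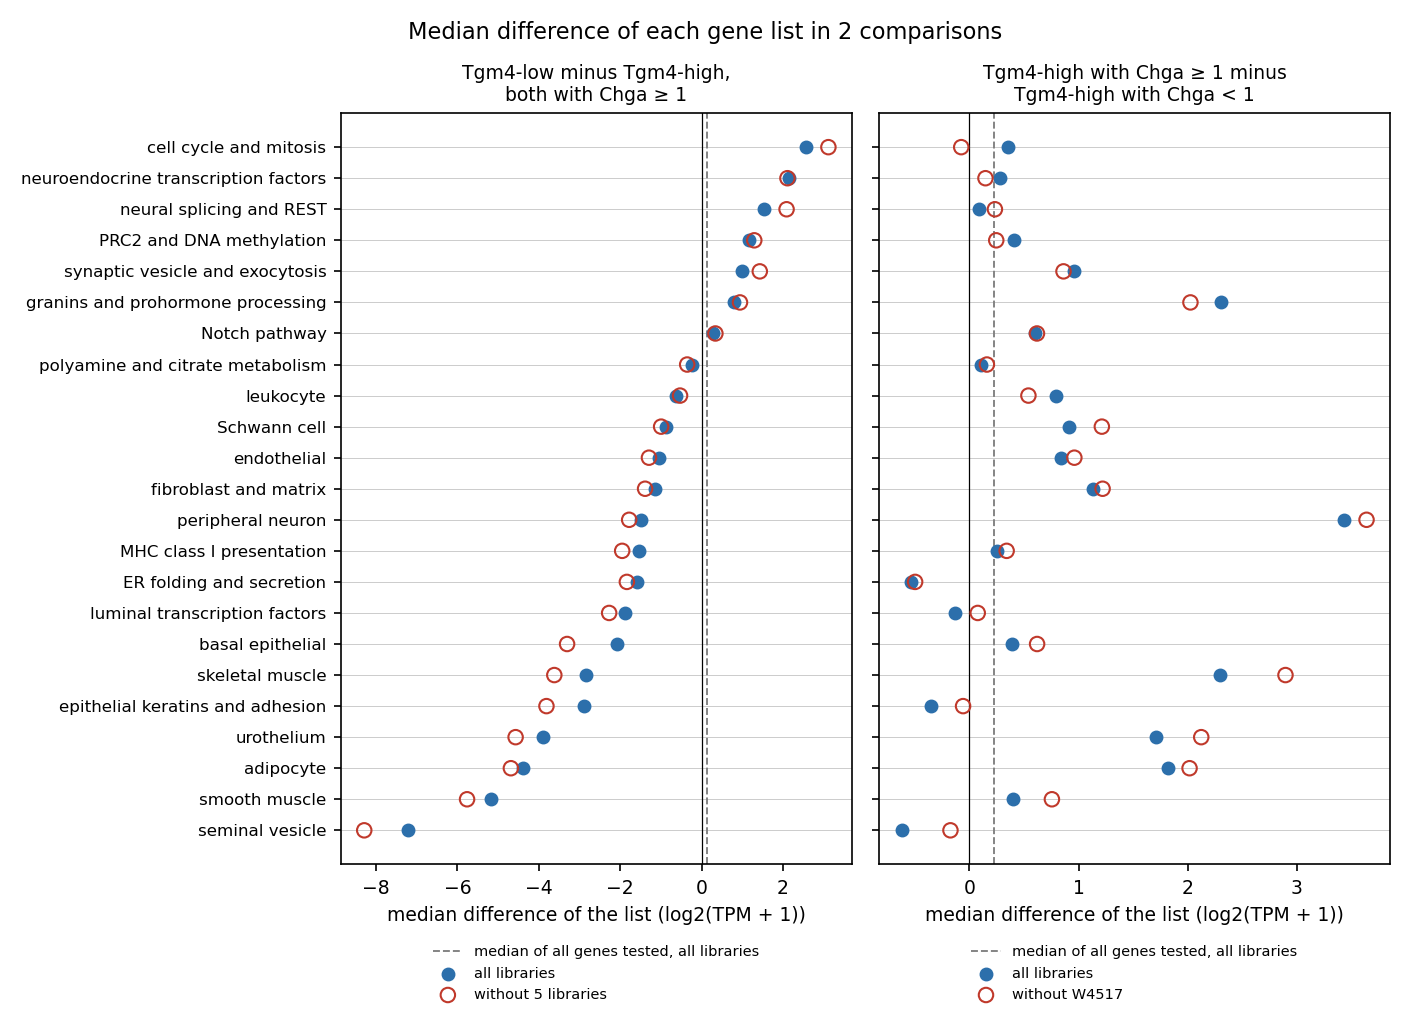
Median log2 difference of each gene list for the first comparison (left) and the second (right), with all libraries and with the stated libraries left out. Cell-cycle and neuroendocrine lists lie on the higher side and smooth muscle on the lower side of the first comparison under both choices.

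Of 13 Notch pathway genes 4 were higher and 4 lower (5 and 4 without the 5 libraries), close to the 30.8 % and 23.3 % of all tested genes. Dll3, an inhibitory ligand, ran from 0.08 to 6.87 TPM (median 0.97) against 0 to 0.49 TPM and rose by 0.97 ± 0.26 (adjusted p 0.0019, 28 of 34 above W4517). Notch1, a receptor, fell by 1.05 ± 0.35 (adjusted p 0.010, 12 of 34 above the lowest of the 6), and Hes1, the classical Notch target, fell by 1.59 ± 0.45 (adjusted p 0.0032, 7 of 34). Jag1, a ligand, differed by 0.0048 (adjusted p 0.99).

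Among the 34 Tgm4-low libraries, 4 had Chga under 10 TPM, from 1.15 to 2.55 TPM, and they were of different kinds. W5003 had Chga of 1.19 TPM, Insm1 of 0.02 TPM, Mki67 of 0.62 TPM and Myh11 of 239 TPM. Its Npy, Vip and Snap25 were 15.1, 6.04 and 6.19 TPM, where the reference reached 18.9, 5.18 and 3.48 TPM. Its Sbp was 70964 TPM, its Defb50 12893 TPM, its Msmb 3542 TPM and its Agr2 186 TPM, and its summed secretory list of 129050 TPM was the highest of the side. Low Tgm4 therefore did not mean loss of luminal secretion in W5003, in which the ventral product Sbp was high. No lobe is given for a library, and whether W5003 held a different lobe was not tested.

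W1050, W1790 and W1915 resembled each other in several genes that set them apart from the other 30. Their Sox2, a stem-cell and neural factor, was 156, 133.5 and 209.7 TPM, where the 30 reached 42.6 TPM. Their Krt8 was 631, 526 and 369 TPM, above every Tgm4-high library and all 30. Insm1 was 0.33, 0.23 and 1.91 TPM and Snap25 0.15, 0.09 and 0.15 TPM, while Rest was 15.4, 14.9 and 15.1 TPM, above every other Tgm4-low library. Their Foxa2 (43.1, 33.7 and 53.97 TPM), Prox1 (33.5, 28.9 and 46.3 TPM), Hes6 (167, 100.5 and 131 TPM) and Mki67 (54.7, 72.9 and 74.1 TPM) lay within the ranges of the 30. The prostate factors Hoxb13 and Foxa1 were nearly absent, with Hoxb13 at 0.15, 0.04 and 0.07 TPM and Foxa1 at 0.05, 0.22 and 0.07 TPM. Other epithelial genes of the lists were present, with Elf3 at 146, 83.3 and 80.4 TPM and Tmprss2 at 26.6, 35.75 and 11.2 TPM. W1915 differed from the other two in Chgb (20.1 against 0.31 and 0.14 TPM) and Sox11 (23.8 against 2.49 and 0.75 TPM), both within the ranges of the 30. The tissue of origin was not tested.

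The 2 libraries between the Tgm4 limits were also unlike each other. W4419 had Chga of 21.2 TPM with Insm1 at 23.2 and Foxa2 at 28.3 TPM, beside Krt8 at 233, Msmb at 1952 and Defb50 at 4984 TPM. It thus joined neuroendocrine factors to luminal products, though to other ones than W4517, in which Msmb was 2.51 and Defb50 63.3 TPM. W4443 had Chga of 1.46 TPM with Insm1 at 0, Msmb at 6869, Npy at 40.5 and Vip at 41.7 TPM. Its Npy and Vip lay within the ranges of the 5 Tgm4-high libraries with Insm1 near 0, while its Msmb lay above and its Th, Dbh and Hand2 (1.49, 1.61 and 0.62 TPM) lay below all 5.

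Complete separation of the sides was nearly confined to lower genes, and since Tgm4 chose the sides, genes that track Tgm4 were favoured by construction. Of all tested genes 66 were lower without overlap (0.439 %) and 1 was higher without overlap (0.00665 %), the pseudogene Gm9864, singled out after its values were seen. The genes below were picked for lack of overlap, so no test is given for them. Among protein-coding genes with a median of at least 5 TPM, 57 were lower without overlap and 0 higher, and the share within that subset was not computed. A single library is enough to remove separation. On the Tgm4-low side W5003 had Mki67 at 0.62 and Insm1 at 0.02 TPM, and on the Tgm4-high side W4517 had 39.7 and 34.2 TPM. Tcaf3, which regulates the ion channel Trpm8, ran from 0.05 to 1.92 TPM against 18.6 to 1178 TPM and was lower by 7.67. Mmp7, a matrix protease of glandular epithelium, ran from 0 to 95.5 TPM against 158 to 753 TPM and was lower by 7.18. Fgl1, a secreted fibrinogen-like protein, was lower by 5.78, and Prdx6, an antioxidant enzyme, by 5.16, with 9.36 to 431 TPM against 659 to 1132 TPM. Ren1, renin, was lower by 7.02, and C1rb, a complement protease with a near-identical paralog that makes its reads hard to assign, by 7.27.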

How the data were processed

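RNA was measured in bulk mouse prostate tissue labelled as tumour, each library taken as 1 mouse, and all libraries of the deposited table were read. The deposited values are in TPM, a relative transcript abundance, which the authors computed with RSEM 1.2.20 over Bowtie2 2.2.5 alignments to GRCm38 after base calling with CASAVA 1.8.2, as the submitters' processing notes state. TPM keeps no read counts, so the depth of each library, and the precision it gives, are unknown; p-values measure the spread between libraries only.

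Of 45699 genes in the table, 45136 (98.8 %) were matched to GENCODE M21 names and positions, and the 40935 autosomal genes were kept. The labels form 1 group, so the sides were defined from measured TPM: Chga of at least 1 TPM with Tgm4 of at least 500 TPM or under 50 TPM. Genes of chromosomes X and Y and of the mitochondrion, and the 2 libraries between the limits, were left out of the tests.

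Values were taken as log2(TPM + 1), genes averaging 1 TPM or more over the libraries fitted were tested with limma 3.58.1 (moderated t, empirical Bayes with trend) in R 4.3.3, and p-values were adjusted by Benjamini and Hochberg to a false discovery rate of 0.05. A difference is given in log2 units with its standard error, and called where the adjusted p was under 0.05. Ranges, medians and list counts were computed in Python 3.11.15 with pandas 2.3.3, NumPy 2.4.6 and SciPy 1.17.1, and figures were drawn with matplotlib 3.10.9.

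Named genes came from 24 lists of genes of known function, with 332 genes in all, and from the 12 largest differences per direction among protein-coding genes with a median of at least 5 TPM in a side and no overlap between the sides: Tgm4, 9530053A07Rik, Tcaf3, C1rb, Mmp7, Ren1, Rnase1, Fgl1, Glb1l3, C1s2, Prdx6 and Gsdma, all lower. Members and lists were chosen with earlier results of these data known. Some genes of the planned lists are not reported here and entered no list count. Rule genes and the prostate secretory list were described without test. Promoters were read from the RefSeq genome GRCm38.p6.

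Alternatives were a pseudocount of 0.1, no filter or a mean of at least 5 TPM, median-of-ratios scaling, rescaling without the 20 largest genes, Tgm4 limits of 1000 and 10 TPM, a Chga limit of 10 TPM, robust empirical Bayes and leaving out W78022, whose name is nearly that of W7822, so that both could stand for the same animal. The labels do not say which libraries the authors used in their own analyses. Chosen after seeing the data were leaving out each of the 6 Tgm4-high libraries in turn, W5003, W1050 with W1790 and W1915, and these 4 with W4517. No 2 of 101 libraries compared had identical values, the highest correlation being 0.987. The fit was tested on simulated data with known differences.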

Additional observations from a re-analysis of the deposited data

Results flagged for a closer look

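Among the 6 Tgm4-high libraries, 86 genes were examined for a library that lay far from the other 5, and 16 genes had one. Chance alone would mark about 1 in 20 independent groups. These genes were chosen with earlier results known and share the same libraries, so that rate is no benchmark for the count, and no excess was tested. W4517 accounted for 12 of the 16 genes, W4219 for 2, and W4360 and W5001 for 1 each. As log2(TPM + 1), W4517 lay above the others at 4.25 for Scg3, 7.604 for Ddc, 5.14 for Insm1, 5.02 for Hes6, 3.56 for Mycn, 4.15 for Prox1, 0.99 for Neurod1, 2.995 for Srrm3, 3.41 for Elavl3, 5.07 for Ptbp2 and 0.58 for Dll3, and below them at 5.28 for Myh11. W4360 lay above the others for Foxa2 at 0.057, a level near 0. W5001 lay below them for Ren1 at 2.23, and W4219 for Glb1l3 at 3.90 and C1s2 at 4.54. All 6 libraries were kept; the cause of these values was not tested.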

How the results depend on the processing

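In the first comparison, a mean of at least 5 TPM left 3062 higher and 1953 lower genes, as fewer genes were tested, and a Chga limit of 10 TPM left 3 and 63. That limit leaves W4517 alone on its side, so few calls were possible and no result above is judged by it. Leaving out 1 Tgm4-high library gave 3838 to 4576 higher and 2924 to 3660 lower genes. Among the 80 genes followed, many calls ended under the Chga limit of 10 TPM, Insm1 among them, and not every gene had a value there. Each other alternative ended the calls of 0 to 2 genes, and 7 genes gained a call under some alternative. Insm1 was the only called gene that turned, to −0.29 under the Chga limit of 10 TPM, and Ddc, which was not called, turned to −0.89 there as well.

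In the second comparison, higher genes numbered 7212 without filter, 499 with a mean of at least 5 TPM, 3821 after rescaling without the 20 largest genes, and 1538 (without W4292) to 3096 (without W5001) when 1 library was left out. Lower genes numbered 144 with a mean of at least 5 TPM, 2793 after median-of-ratios scaling, 1056 after rescaling, 368 with Tgm4 limits of 1000 and 10 TPM, and 123 (without W4517) to 275 (without W4292) when 1 library was left out. Of 26 genes followed, 2 had a weaker call, Ptprc and Ckm, and 6 a stronger one. The cause of these shifts was not tested.

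Leaving out W78022 did not apply to the first comparison, which lacks it, and leave-one-out was not planned for sides of 6 and 34. No paired analysis was possible because the labels form 1 group and carry no shared replicate numbers. The 6 Tgm4-high libraries are few and of more than 1 kind, the sides were sorted by measured values, bulk tissue mixes cell types and lobes, the depth of each library is unknown, and age, histology and dissection of each library are not given. No protein, cell count or tissue section was available, so which cells carried Chga could not be seen.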
